A study of Mus musculus with 2 samples.

Results

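The mouse kinesin motor genes were examined for binding of the transcription factor NRF1 at their promoters. The members were all protein-coding genes whose symbol is Kif followed by a number and an optional letter, which gave 38 of the 21238 protein-coding genes with a usable start site. By known function, 12 were set in a mitotic class, 13 in a transport class and 13 in a class of other kinesins. The minus-end motors with Kifc symbols and the CENP-E gene fall outside the symbol rule.

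Kinesins are motors that use ATP to walk along microtubules or to take microtubule ends apart. Mitotic kinesins build the spindle, move chromosomes and complete cell division, and are made mainly by dividing cells. Transport kinesins carry vesicles, organelles and ciliary cargo, and several are best known from neurons. NRF1, nuclear respiratory factor 1, binds a GC-rich palindromic site in promoters, many of them of genes for mitochondrial proteins.

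Peaks of NRF1 came from chromatin immunoprecipitation followed by sequencing (ChIP-seq) of CH12.LX, an immortalized B-cell lymphoma line from a female mouse of strain B10.H-2aH-4bp/Wts. The samples were 2 biological replicates of 1 group with no treatment named, so the data hold no treated, mutant or control group, and a control library was not analysed here. Both replicates come from the same donor line, and the labels do not say how far apart the cultures were. RNA was not measured, so a peak says nothing here about how much of a kinesin these B cells make, and the labelled cell type was not checked with markers.

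The main list was the optimal set, 17547 peaks on mm10 kept by the irreproducible discovery rate, which asks whether a peak ranks alike in repeat libraries. A gene was called occupied if a peak summit lay within 1000 bp of its transcription start site (TSS), taken as the 5′ end of the RefSeq gene. Each peak carries a signal value from the authors' peak caller, on a scale that the sources used here leave unstated. The signal was used to describe and rank peaks within a list. Means, SDs and ratios of signal were also taken across the replicate lists. These take the scales of the replicate lists to be alike, which was not tested. In the optimal set the signal had a median of 38.0 over all peaks and a highest value of 703 at a gene. Read numbers are not given, so the depth is unknown and no interval that depends on depth was computed. The optimal value at a peak comes from both libraries, so it is not a further replicate.

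The sequences below were read near the starts of kinesin genes. Genes with higher signals come first, all strong but Kif13b, and then mitotic genes with a weak peak or none. Each runs 5′ to 3′ on the strand of the gene. Capitals mark NRF1-like stretches, compared with the 10-base NRF1 consensus on both strands and differing from it by 0 to 3 bases, the letters CCAAT or ATTGG, and the letters TTTGAA or TTCAAA. The first 3 are promoter stretches from the RefSeq table of GRCm38.p6 for Kif18b (chr11:102925144-102925229, minus strand), Kif3a (chr11:53567306-53567368, plus strand) and Kif2a (chr13:107022398-107022466, minus strand).
Kif18b: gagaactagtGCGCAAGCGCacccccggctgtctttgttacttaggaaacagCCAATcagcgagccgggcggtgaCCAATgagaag
Kif3a: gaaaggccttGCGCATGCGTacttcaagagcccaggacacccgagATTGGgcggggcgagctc
Kif2a: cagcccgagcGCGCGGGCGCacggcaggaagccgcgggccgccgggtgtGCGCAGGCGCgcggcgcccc
The next 4 are the stretches under the mm9 summits with the fewest mismatches to the consensus, with the bases to either side, from NCBIM37, and the mismatches number 1 in Kif24, 2 in Kif16b, 3 in Kif9 and 0 in Kif13b. They lie in Kif24 (chr4:41411687-41411716, minus strand, in an intron), Kif16b (chr2:142727266-142727295, minus strand, upstream of the gene), Kif9 (chr9:110379109-110379138, plus strand, upstream of the gene) and Kif13b (chr14:65271571-65271600, plus strand, in an intron).
Kif24: cccaggctctGCGCCTGCGCgggagcgggt
Kif16b: gagccgctctGGGCATGCTCagtggcctgg
Kif9: cgccgcaactGCGCAGGCCTggccagcagg
Kif13b: tcccttcagcGCGCGTGCGCcctcgacggc
The last 3 are stretches just upstream of the RefSeq starts of the mitotic genes Kif11 (chr19:37376322-37376381, plus strand), Kif22 (chr7:127042421-127042480, minus strand) and Kif15 (chr9:122951051-122951080, plus strand), again from GRCm38.p6. They hold no NRF1-like site with up to 1 mismatch.
Kif11: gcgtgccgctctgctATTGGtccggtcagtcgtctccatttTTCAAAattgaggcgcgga
Kif22: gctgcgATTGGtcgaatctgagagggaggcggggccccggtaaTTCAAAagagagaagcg
Kif15: ggggcgccaaaTTCAAAtctgcggccatct

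NRF1 peaks lay at the promoters of 21 of the 38 kinesin genes (55.3%), against 36.8% of all protein-coding genes. In the mitotic class 9 of 12 genes were occupied (75%), in the transport class 7 of 13 (53.8%) and among the other kinesins 5 of 13 (38.5%). Mitotic kinesins were thus occupied more often than transport kinesins by 21.2 percentage points. Of the occupied genes, 8 of 9 mitotic (88.9%) and 4 of 7 transport kinesins (57.1%) had a signal under 100, against 52.8% of all occupied genes. The medians of the classes were close, at 41.4 for mitotic and 44.7 for transport kinesins. These signal values depend on the classes, since Kif2a (503) and Kif24 (552), both strong, were set among the other kinesins. An alternative run counted both as mitotic, but for occupancy only. The top of each replicate list, cut to as many peaks as the optimal set holds, gave the mitotic class 66.7% in replicate 1 and 91.7% in replicate 2. It gave the transport class 53.8% in replicate 1 and 61.5% in replicate 2, and all genes 38.0% in replicate 1 and 36.7% in replicate 2. The difference between the classes was 12.8 percentage points in replicate 1 and 30.1 in replicate 2, so its sign was the same in both and its size was not. Over the replicates the share was 79.2% ± 17.7 for mitotic kinesins and 57.7% ± 5.44 for transport kinesins (SD, n = 2 each). The classes hold so few genes that 1 gene moves a share by several points, and no test over genes was made.

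**Figure D1:**
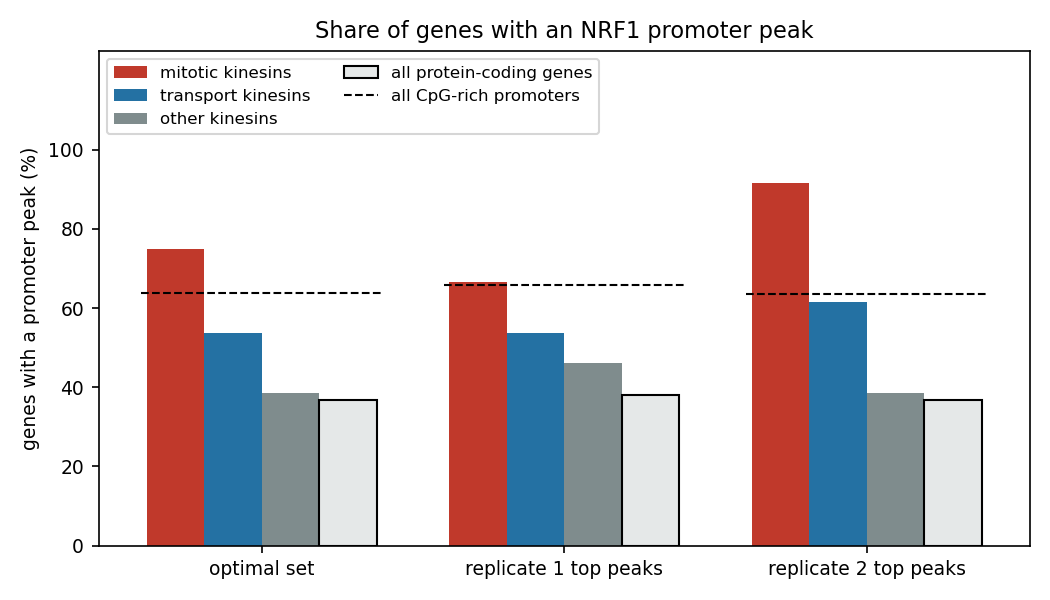
Share of genes (%) with an NRF1 promoter peak in the optimal set and in the top peaks of each replicate, for mitotic, transport and other kinesins and all protein-coding genes, with the dashed line at all CpG-rich promoters. Mitotic kinesins stand at 75%, 66.7% and 91.7%, all protein-coding genes at 36.8%, 38.0% and 36.7%, and all CpG-rich promoters at 63.8%, 65.9% and 63.5%.

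CpG-rich promoters, those with high GC and CpG content around the start, are where NRF1 peaks lie most often. Of all CpG-rich promoters 63.8% were occupied, and of the other promoters 15.1%. Among the kinesins 29 of 38 promoters were CpG-rich, and 18 of these 29 were occupied (62.1%), a share near that of all CpG-rich promoters. Within CpG-rich promoters 8 of 10 mitotic kinesins (80.0%), 6 of 11 transport kinesins (54.5%) and 4 of 8 other kinesins were occupied. The higher share of kinesins over all genes was therefore not seen against CpG-rich promoters alone, while the order of the classes was the same. The 3 occupied genes outside the CpG-rich class were Kif14, Kif5b and Kif19a. The class of Kif5b rests on an mm9 gene model whose 5′ end is 613 bp from the mm9 summit.

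Signals of the occupied kinesins fell into a strong and a weak range with 1 gene between them. In the optimal set 6 occupied kinesins had a signal of 300 or more (28.6%), against 32.0% of all occupied genes, and 14 had a signal under 100 (66.7%), against 52.8%. The bands were chosen after the values were seen. The median signal was 41.4 for occupied mitotic kinesins (23.5 to 573), 44.7 for transport kinesins (23.9 to 618) and 417 for other kinesins (23.7 to 552). All occupied protein-coding genes had a median of 85.5. The mitotic and transport medians were close, and the transport median became 104 once Kif3a was counted at its RefSeq start.

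**Figure D2:**
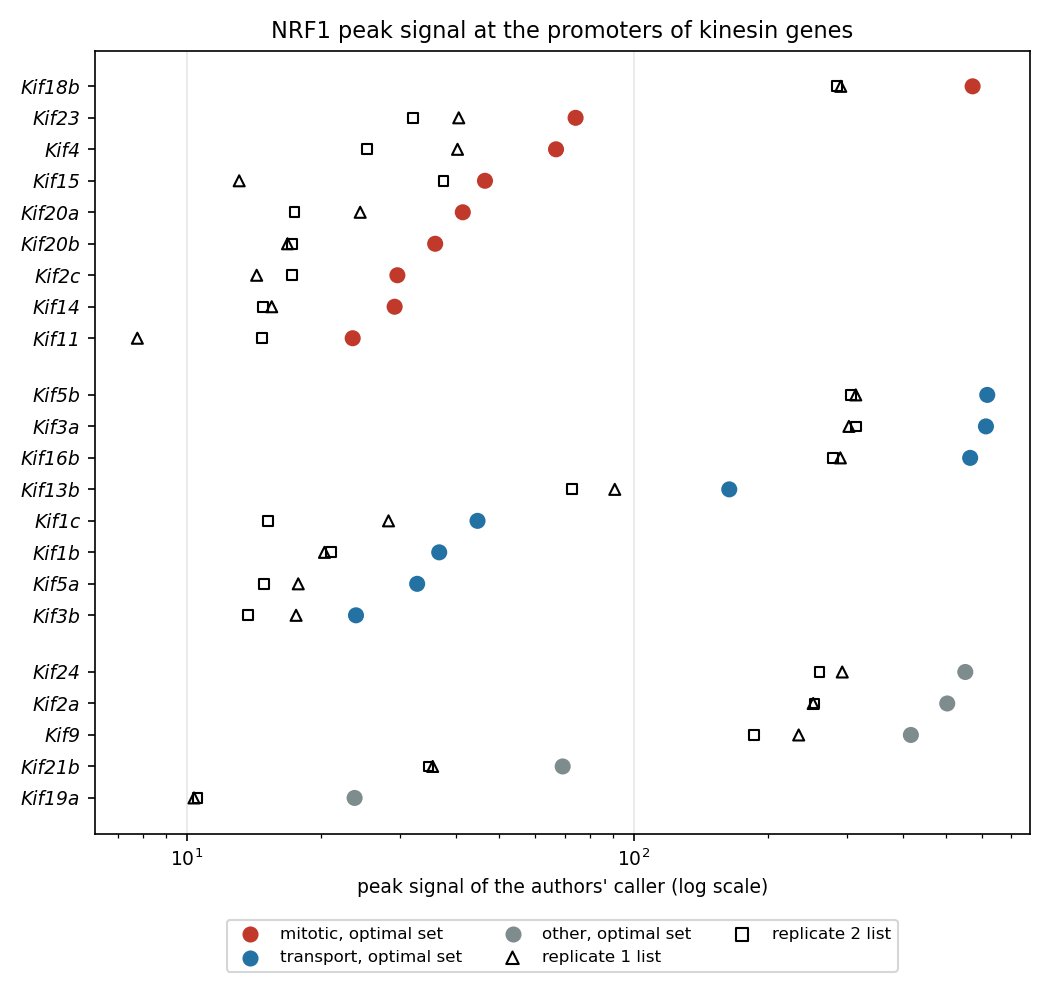
Signal of the NRF1 promoter peak of each kinesin with a peak (log scale), in the optimal set (filled circles, coloured by class) and in the replicate 1 (triangles) and replicate 2 (squares) lists. Kif18b alone of the mitotic genes stands in the strong range, at 573, beside Kif5b at 618, Kif3a at 614 and Kif16b at 566 among transport genes.

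Kif18b was the only strongly occupied kinesin of the mitotic class as set here. It encodes a motor that shortens astral microtubules at their plus ends. Its peak at chr11:102925036-102925364 (mm10) had a signal of 290 in replicate 1, 285 in replicate 2 and 573 in the optimal set, a replicate mean of 288 ± 3.62 (SD, n = 2). Both replicates were high and close to each other, and the optimal value stood at percentile 95.6 of the peaks. The summit lay at -78 bp from the gene's 5′ end. In the printed stretch the site GCGCAAGCGC has 1 mismatch to the consensus and its centre is at -2 bp from the summit, followed by a pair of CCAAT boxes towards the start.

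The other occupied mitotic kinesins had weak peaks. Kif23, a part of the centralspindlin complex that organises the midzone in cytokinesis, had a signal of 40.6 in replicate 1, 32.1 in replicate 2 and 74.1 in the optimal set. Kif4, a chromokinesin that also sets the length of midzone microtubules, had 40.3 in replicate 1, 25.3 in replicate 2 and 67.0 in the optimal set. Both followed Kif18b in the optimal set and in replicate 1, while in replicate 2 Kif15 stood above them, and both were far below Kif18b in each replicate.
Kif15, which helps to keep the spindle bipolar, had 13.1 in replicate 1, 37.5 in replicate 2 and 46.5 in the optimal set. Its replicates differed the most of all kinesin peaks, with a ratio of 0.349 of replicate 1 to replicate 2. Kif20a, which carries the chromosomal passenger complex to the midzone, had 24.4 in replicate 1, 17.4 in replicate 2 and 41.4 in the optimal set. Kif20b, a cytokinesis motor, had 16.8 in replicate 1, 17.2 in replicate 2 and 35.9 in the optimal set.
Kif20b was below Kif20a in both replicates, by little in replicate 2, and these neighbours did not differ beyond the replicate spread of Kif20a, whose SD was 4.96. Kif2c, the centromeric microtubule depolymerase MCAK, had 14.3 in replicate 1, 17.2 in replicate 2 and 29.6 in the optimal set. Kif14, a cytokinesis motor that recruits citron kinase, had 15.5 in replicate 1, 14.8 in replicate 2 and 29.2 in the optimal set. Kif11, the Eg5 motor that pushes spindle poles apart, was the weakest, with 7.75 in replicate 1, 14.7 in replicate 2 and 23.5 in the optimal set. The Kif11 peak was not in the conservative set and ranked 24198 in replicate 1, outside its top peaks, so this call rests on replicate 2 and the combined data.

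Of the mitotic kinesins, 3 had no optimal peak at the promoter. Kif22, a chromokinesin that pushes chromosome arms away from the poles, had relaxed-list signals of 8.85 in replicate 1 and 9.87 in replicate 2, and a conservative-set peak of 18.6. Its nearest optimal summit was 15047 bp away, although the promoter was called in the conservative set. Kif18a, which dampens chromosome movements at the metaphase plate, had 7.13 in replicate 1 and 10.4 in replicate 2, with the nearest optimal summit 610108 bp away. Both stood in the top peaks of replicate 2 and not of replicate 1. Kif2b, a spindle depolymerase, had no peak at its promoter in either relaxed list, and its nearest optimal summit was 1159412 bp away.

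Among transport kinesins 3 genes had strong peaks. Kif5b, the widely expressed heavy chain of conventional kinesin, had a signal of 314 in replicate 1, 307 in replicate 2 and 618 in the optimal set. Its optimal value was the highest of all kinesins but close to that of Kif3a, at 614, and in replicate 2 Kif3a stood above it. Kif16b, which moves early endosomes, had 290 in replicate 1, 279 in replicate 2 and 566 in the optimal set. Kif5b, Kif16b and Kif18b had almost the same level in both replicates.
Kif3a encodes a subunit of the heterotrimeric kinesin that builds cilia. Its peak at chr11:53567149-53567585 had 303 in replicate 1, 314 in replicate 2 and 614 in the optimal set. The summit lay 1646 bp inside the 5′ end of the RefSeq gene but at -22 bp from a start in the RefSeq promoter table, so the gene is outside the 1000 bp rule and is counted as occupied only with that start. Counting any RefSeq start, 22 kinesins were occupied, against 39.9% of all genes, the transport class had 8 of 13 genes occupied and the difference from the mitotic class was 13.5 percentage points. Just inside the limit the farthest summit was that of Kif19a, at 412 bp, and beyond Kif3a the next gene was Kif22, at 15047 bp. A limit of 500 bp gave 21 occupied kinesins, against 33.7% of all genes, and a limit of 2000 bp gave 22, against 39.2%.

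The remaining occupied transport kinesins had lower signals. Kif13b, which carries membrane-associated scaffold proteins, had 90.7 in replicate 1, 72.9 in replicate 2 and 164 in the optimal set, the only value between the strong and weak ranges. Kif1c, a vesicle motor, had 28.3 in replicate 1, 15.2 in replicate 2 and 44.7 in the optimal set. Kif1b, a carrier of mitochondria and synaptic vesicle precursors, had 20.3 in replicate 1, 21.0 in replicate 2 and 36.7 in the optimal set.
Kif1c and Kif1b did not differ beyond the replicate spread of Kif1c, whose SD was 9.27. Kif5a, a neuronal heavy chain of conventional kinesin, had 17.8 in replicate 1, 14.9 in replicate 2 and 32.8 in the optimal set. Kif3b, the partner of Kif3a, had 17.6 in replicate 1, 13.7 in replicate 2 and 23.9 in the optimal set. Partners in 1 motor thus stood at opposite ends of the range, Kif3a at 614 and Kif3b at 23.9, and so did the heavy chains Kif5b at 618 and Kif5a at 32.8.

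The transport class held 5 further genes without an optimal peak. Kif5c, another neuronal heavy chain, Kif1a, the carrier of synaptic vesicle precursors, and Kif13a, which moves recycling endosomes, had no relaxed-list peak at the promoter in either replicate. Their nearest optimal summits were 167991 bp away for Kif5c, 122156 bp for Kif1a and 87662 bp for Kif13a. Kif17, a homodimeric ciliary and dendritic motor, had 4.03 in replicate 1 and 7.30 in replicate 2, with the nearest optimal summit 42540 bp away. Kif3c, a neuronal relative of Kif3b, had 6.08 in replicate 1 and 11.0 in replicate 2, and stood in the top peaks of replicate 2 only. Its nearest optimal summit was 20765 bp away.

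The other kinesins were the class with the fewest occupied genes and the highest median among them. Kif24, a centriolar motor that restrains cilium formation, had 293 in replicate 1, 260 in replicate 2 and 552 in the optimal set. Kif2a, a microtubule depolymerase of neurons and spindle poles, had 252 in replicate 1, 254 in replicate 2 and 503 in the optimal set. Kif9, a motor of motile cilia and sperm tails, had 234 in replicate 1, 185 in replicate 2 and 417 in the optimal set.
These 3 genes were high in both replicates. Kif21b, which limits microtubule growth in neurons and lymphocytes, had 35.5 in replicate 1, 34.7 in replicate 2 and 69.3 in the optimal set. Kif19a, which shortens ciliary microtubules, had 10.4 in replicate 1, 10.6 in replicate 2 and 23.7 in the optimal set. Both had close replicates at low signal. Kif7, a regulator of Hedgehog signalling in cilia, was unoccupied in the optimal set with 12.8 in replicate 1 and 9.38 in replicate 2, but had a conservative-set peak of 22.1.
The unoccupied genes Kif12, Kif21a, Kif26a, Kif26b, Kif27, Kif28 and Kif6 had no relaxed-list peak at the promoter in either replicate. Their nearest optimal summits lay between 17926 bp, for Kif26a, and 1458441 bp, for Kif21a. Between these were Kif27 at 36814 bp, Kif28 at 58473 bp, Kif26b at 122764 bp, Kif12 at 196637 bp and Kif6 at 574403 bp, while for Kif7 the distance was 55814 bp.

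Over all kinesins with a peak, the signals of the replicates were within 1.5 times of each other for 18 of 22. The exceptions were Kif11, Kif15, Kif4 and Kif1c, all with an optimal signal under 100. Across the 21 occupied genes the replicate signals had a Spearman rho of 0.857, and across the 14 with a signal under 100 it was 0.530. These points are peaks of the same pair of libraries, not independent samples. The optimal set was selected by a measure of agreement in rank, so part of this agreement may follow from the selection. The same values over all occupied genes were not computed, so the agreement is not shown to be a trait of kinesins. The conservative set held 22 kinesins, against 35.6% of all genes: 20 of the 21 occupied ones, all but Kif11, and also Kif22 and Kif7. Of its 15936 peaks 2514 were not in the optimal set, so a gene without an optimal peak, such as these 2, may have one in the conservative set. The part of the optimal set above its median signal held 13 kinesins, against 26.9% of all genes.

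Occupied genes have a summit within 1000 bp of the start by definition. Of the 21 summits 15 were upstream of the gene's 5′ end, and the median distance was 61 bp. Mitotic summits ran from -103 to 24 bp, with negative values upstream and a median distance of 37 bp, and transport summits from -142 to 248 bp, with a median of 61 bp. All 14 peaks with a signal under 100 had the same width of 344 bp. Positions and widths were not computed for all occupied genes, so none of these values is shown to be a trait of kinesins.

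**Figure D3:**
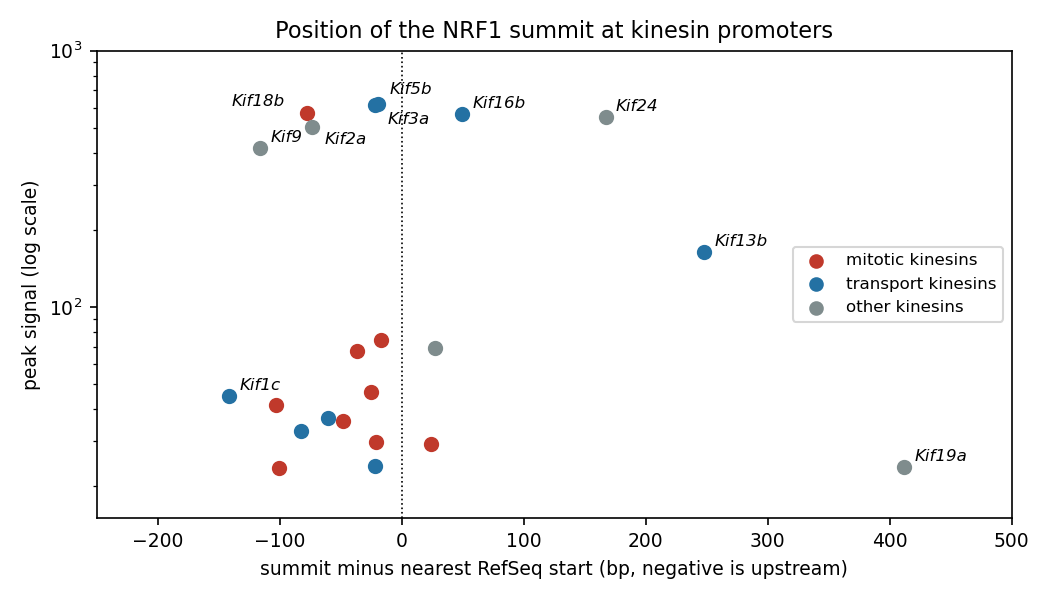
Distance of the NRF1 summit from the nearest RefSeq start (bp, negative is upstream) against peak signal (log scale) for the 22 kinesins with a peak, coloured by class. The signals fall into a group at 417 or more and a group at 74.1 or less, with Kif13b at 164 between them, and Kif19a lies farthest from its start at 412 bp.

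Several kinesin promoters are shared with a protein-coding gene on the other strand, and a peak there cannot be assigned to 1 of the pair. This held for 7 of the 21 occupied genes (33.3%), against 23.1% of all occupied genes. The mitotic pairs were Kif15 with 1110059G10Rik, whose starts are 81 bp apart, Kif4 with Pdzd11, 124 bp apart, and Kif20a with Brd8, 239 bp apart. The transport pairs were Kif5a with Dctn2, 86 bp apart, and Kif1c with Inca1, 241 bp apart. Dctn2 encodes a subunit of dynactin, the cofactor of the opposing motor dynein, so a motor gene and a gene of the dynein machinery had the same weak peak of 32.8. The other pairs were Kif9 with Klhl18, 44 bp apart, and Kif24 with Nudt2, 229 bp apart. Genes that do not code for protein also ran the other way from the peaks of Kif2a (3830408C21Rik, 215 bp apart), Kif3b (Gm39961, 31 bp apart) and the RefSeq start of Kif3a (A430108G06Rik). With Kif2a and Kif3b, 9 of 21 occupied genes had a partner of any type. The share of all occupied genes with a partner of any type was not computed, so this count has no value beside it. Without the 7 genes with a protein-coding partner the median signal was 32.8 for mitotic and 164 for transport kinesins.

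The sequence under the summits was read in the peak set made on mm9, the build of the genome at hand. There 17 of the 38 kinesins had a promoter peak (44.7%), against 34.9% of all genes. For these shares any start of a protein-coding transcript in the mm9 gene models was counted, so Kif3a is included. The mm9 signals are on another scale and are not compared with those above. The exact NRF1 consensus lay within 50 bp of the summit at 1 of 17 kinesin peaks, that of Kif13b, against 10.8% of all mm9 promoter peaks. With up to 1 mismatch it lay at 7 of 17, against 37.0%. Of these 7, 1 was mitotic (Kif18b, of 7 mitotic peaks) and 3 were transport genes (Kif5b, Kif3a and Kif13b, of 6 transport peaks). Kif24, Kif2a and Kif21b were the others.
The strong kinesin peaks, with a signal of 300 or more on mm10, stood at percentile 78.9 or above of the mm9 set, and the weak ones, under 100, at percentile 48.4 or below. A site with up to 1 mismatch lay under 5 of the 7 strong kinesin peaks, against 76.1% of all promoter peaks in the upper quartile of mm9 signal. It lay under 1 of the 9 weak ones in the mm9 set, against 11.1% of all promoter peaks in the lower part of mm9 signal, below the median. Of the strong peaks Kif16b had a best site with 2 mismatches and Kif9 with 3. Of the weak mitotic peaks Kif23 and Kif4 had 2 mismatches, Kif15, Kif20b and Kif2c had 3 and Kif20a had 4. Kif13b went the other way, with the exact consensus and an mm9 signal of 243, where all promoter peaks with an exact site had a median of 2431. A match is a description of the letters and not a bound site.

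**Figure D4:**
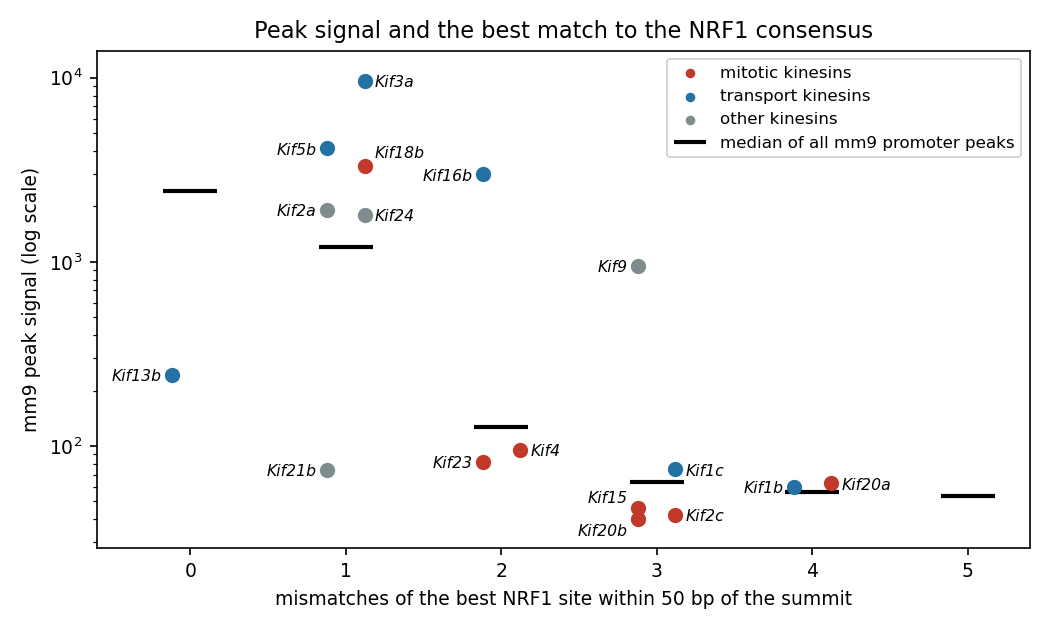
Mismatches of the best NRF1 site within 50 bp of the mm9 summit against mm9 peak signal (log scale) for the 17 kinesins with an mm9 promoter peak, coloured by class and set apart sideways for legibility; bars mark the median of all mm9 promoter peaks. Kif3a, Kif5b, Kif18b, Kif2a and Kif24 lie high at 1 mismatch, and Kif13b low at 0.

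Promoters of cell-cycle genes are known for a pair of other elements, the CHR, bound by complexes that silence these genes outside division, and CCAAT boxes bound by NF-Y. The letters TTTGAA, a CHR-like element, and CCAAT were searched on both strands in the RefSeq promoter windows, 250 bases before to 50 after each start, which 31 of the 38 kinesins had. TTTGAA was in 9 of 11 mitotic kinesins (81.8%) and 1 of 10 transport kinesins, against 18% of all genes (3106 of 17273). CCAAT was in 7 of 11 mitotic (63.6%) and 3 of 10 transport kinesins (30.0%), against 42.7% of all genes. An NRF1 site with up to 1 mismatch was in 1 of 11 mitotic and 2 of 10 transport kinesins, against 14.6% of all genes. The windows of Kif14 and Kif2c belong to starts away from their peaks. Both elements depended on the start used. At the 5′ ends of the mm9 gene models TTTGAA was in 6 of 12 mitotic and 0 of 13 transport kinesins, against 16.0% of all genes. CCAAT was in 8 of 12 mitotic (66.7%) and 6 of 13 transport kinesins (46.2%), against 38.5% of all genes, so transport kinesins were below all genes in the RefSeq windows and above them here.
The printed stretches show the arrangement in picked genes, which is not that of the whole class. In Kif11 and Kif22 an ATTGG is followed by TTCAAA shortly before the start, and Kif15 has TTCAAA at the same place as Kif11, with its first base at -19 from the start. Kif18b holds an NRF1-like site, a pair of CCAAT boxes and, beyond the printed stretch, TTTGAA just after its RefSeq start. TTTGAA also began after the RefSeq start in Kif23 at 2 bp, Kif20b at 7 bp and Kif4 at 19 bp. The RefSeq windows of Kif15 and Kif20b held no CCAAT. Kif26a had the 10 letters GCGCATGCGT in the window of a RefSeq start, the same as in Kif3a, and no peak there, while Kif3a had a signal of 614.

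**Figure D5:**
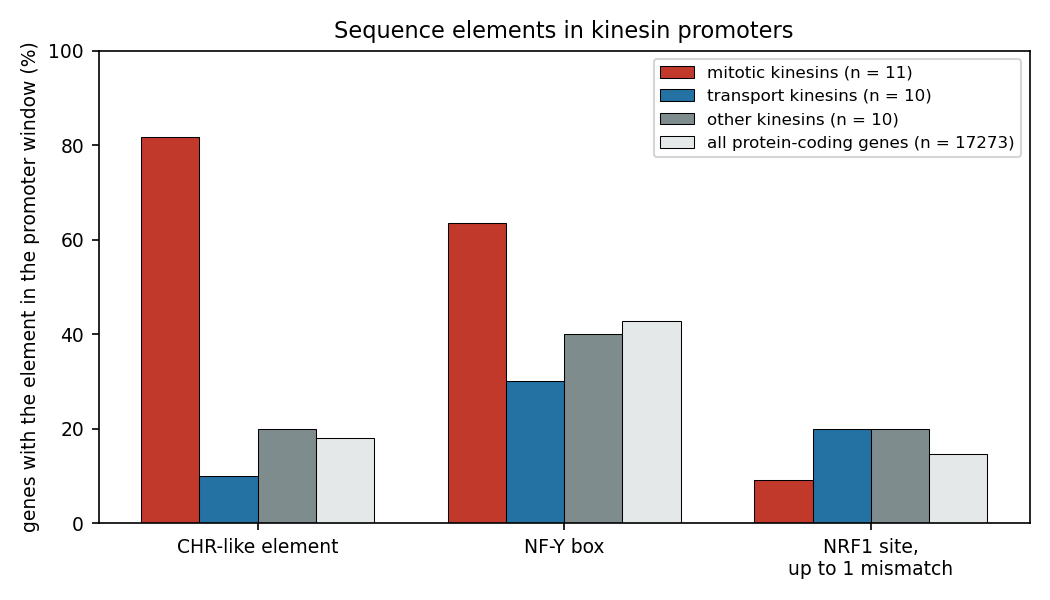
Share (%) of mitotic (n = 11), transport (n = 10) and other kinesins (n = 10) and all protein-coding genes (n = 17273) whose RefSeq promoter window holds a CHR-like element, an NF-Y box or an NRF1 site with up to 1 mismatch. The CHR-like element stands at 81.8% for mitotic kinesins and 18% for all genes.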

How the data were processed

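NRF1 peaks from 2 CH12.LX replicates were used as deposited. Per the notes deposited with the samples, the authors called relaxed lists on mm10 for each replicate and for both pooled, each with a control, selected conservative and optimal sets by irreproducible discovery rate, and made a further set on mm9. The deposited signal column is the authors' caller's value. No source used here names the aligner, caller, thresholds or depth. The files' column of summit offsets gave the summits. Chromosomes 1 to 19 and X were kept.

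Gene starts on mm10 were taken from RefSeq (GRCm38.p6). Of 21627 protein-coding genes, 17273 took their strand from the RefSeq promoter table and the others from GENCODE vM1 by symbol (3584) or synonym (381), and 389 without a strand were left out. Where both sources gave a strand, 44 of 16199 genes differed, none of them a kinesin. A replicate's signal is that of the strongest overlapping relaxed peak, and its top peaks are as many as the optimal set holds. Sequence under summits, CpG class (GC above 0.5, CpG observed/expected above 0.6 in 1000 bp) and gene models on mm9 used NCBIM37 and GENCODE vM1, with no conversion of coordinates.

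All kinesins are named, with the genes that share their peaks. Of a list of motor partners, the 3 strongest occupied and the first 2 unoccupied in alphabetical order are named, and other partners named were chosen after their values were seen. The members, classes and lists were chosen with earlier results of these data known. Printed sequences were to be those of occupied genes with an exact NRF1 site, which only Kif13b has, and the others were added after the values were seen. With 1 group no test was made, and results are counts and medians beside those of all genes. The assignment of peaks and the motif search were tested on simulated data. Alternatives were other peak sets, windows, overlaps, single replicates, classes and motif settings. Counting any RefSeq start, and leaving out shared promoters, were added after seeing the data. Python 3.11.15, numpy 2.4.6 and pandas 2.3.3 were used.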

Additional observations from a re-analysis of the deposited data

How the results depend on the processing

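Mitotic kinesins were occupied more often than transport kinesins under every alternative run, by 10.9 to 30.1 percentage points. One alternative added Kif2a and Kif24 to the mitotic class and Kif21a and Kif21b to the transport class. It gave 11 occupied mitotic and 8 occupied transport genes, with a difference of 25.2 points. Signal medians were not computed for those classes, and Kif2a and Kif24 both had strong peaks. Without 1 replicate the difference ranged from 12.8 to 30.1 points, the kinesin count from 21 to 24, the mitotic count from 8 to 11 and the transport count from 7 to 8. In the higher-signal part of the optimal set, above its median, 13 kinesins, 5 mitotic and 4 transport genes stayed occupied, with median signals of 67.0 for mitotic and 365 for transport genes, and the difference was 10.9 points. With the 2000 bp window or any RefSeq start the transport median was 104, since Kif3a enters. Without genes that share a peak with the opposite strand the median was 32.8 for mitotic and 164 for transport genes. As a percentile of signal within the list, the median was 52.8 for mitotic and 55.3 for transport genes in the optimal set. In the mm9 set the median percentile was 34.8 for mitotic and 78.2 for transport genes. The mm9 set was read at any transcript start, so Kif3a entered, at percentile 99.1. The weak transport genes Kif3b and Kif5a, and the weak mitotic genes Kif11 and Kif14, had no mm9 promoter peak, so the members differ between the sets. In single replicates the median percentile ranged from 46.9 to 47.8 for mitotic and from 47.6 to 58.7 for transport genes, with transport genes higher in each. The exact NRF1 site counted 1 kinesin and up to 1 mismatch counted 7. The other class counts were within 1.5 times of those in the optimal set, and reached 1.5 times without genes that share a peak, with 14 kinesins and 6 mitotic genes. The nearest relaxed peak gave the same replicate signals for 22 of 22 single genes. With 2 replicates, leaving 1 out gives the other value, printed for each gene above, and says nothing about stability. No paired analysis was possible because there is 1 group. Depth is unknown, so it cannot be said whether genes without a peak would gain one with more reads.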

Other observations

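The listed partners of these motors were occupied more often than the kinesins, of which 55.3% were. Of 49 listed partner genes 37 had an optimal promoter peak (75.5%), against 36.8% of all protein-coding genes. The median signal among them was 173. The list was chosen with earlier results of these data known. Of all CpG-rich promoters 63.8% were occupied, and how many partners are CpG-rich was not counted, so the 2 shares are not like for like. Dynactin, the cofactor that links dynein to its cargo, and the regulators of dynein had peaks at 10 of 12 genes with a median of 542. The strongest were Pafah1b1, the gene of the dynein regulator LIS1, with 324 in replicate 1, 333 in replicate 2 and 655 in the optimal set, Dync1li1, a light intermediate chain of dynein, with 627, and Ndel1, a LIS1 partner, with 623. Cytoplasmic dynein subunits had peaks at 6 of 11 genes with a median of 192, and spindle partners at 9 of 11 with a median of 173. Aurkb, the kinase of the chromosomal passenger complex, and Dctn3, a dynactin subunit, had no optimal peak. Kinesin light chains and adaptors had peaks at 8 of 10 genes with a median of 49.1. The minus-end kinesins and the CENP-E gene had peaks at 4 of 5 genes. The minus-end motor Kifc1 had 373 and its near-identical relative Kifc5b had 442, values that are uncertain since reads can be shared between such copies. Cenpe, the kinetochore kinesin, had 64.8, in the range of the weak mitotic kinesins.

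Inside kinesin genes and beyond the promoter window there were 9 optimal peaks in 6 genes, of which that of Kif3a at a RefSeq start was described above. The other 8 were weak, with signals of 5.02 and 9.58 in Kif13b, 13.3 in Kif3a, 19.8 in Kif9, 19.1 and 26.9 in Kif21b, 25.1 in Kif19a and 51.7 in Kif1b. The peak inside Kif1b was above that at its promoter, which had 36.7.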
